A study of Neurospora crassa with 2 samples.

Results

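The genes described here are the protein-coding and non-coding genes of Neurospora crassa that the deposited table lists by an NCU number alone, without a gene symbol, and that were lower after 20 hr (DD20) than after 12 hr (DD12) in constant darkness. They were chosen by the measured values themselves: a mean of at least 1 RPKM over DD20 and DD12, and a log2((RPKM at DD20 + 1)/(RPKM at DD12 + 1)) of -1 or less, a ratio of 2-fold. RPKM is the number of reads on a gene scaled for the length of the gene model and for the library total. The rule left out the genes NCU15731 to NCU15759. It took 147 of the 10559 genes of the table, or 147 of the 9385 unnamed genes, of which 6345 reached a mean of 1 RPKM.

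In the study, hyphae of the wild-type (WT) strain were grown in liquid glucose medium in the dark for 20 hr or 12 hr, and polyA RNA was sequenced. The methods give WT as a strain with the bd allele, which is used for its clear conidiation bands, and both time points share it. The study describes duplicate, pooled RNA samples, but the table has a single column for DD20 and a single column for DD12. No replicate check of the difference was therefore possible, no p-value was computed, and a difference between the time points cannot be told apart from one between RNA pools.

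Neurospora grows as branching hyphae and makes its asexual spores, the conidia, on aerial hyphae. A transcription-translation feedback loop keeps circadian time in darkness: the White Collar Complex activates frq, and the FRQ protein inhibits that complex. The same complex is the blue-light receptor that induces vvd and the carotenoid genes. An NCU number is the locus number of the Neurospora genome annotation, and a gene keeps only this number when no symbol has been assigned to it. The annotation used here, RefSeq assembly NC12, was used for gene types and order and not for products, so no role is stated for these genes.

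The 147 genes made up 2.32% of the 6345 unnamed genes with a mean of at least 1 RPKM. Over all 7414 genes at that level, named ones included, the share was 2.33%, and 23 of 1063 genes with a symbol met the same limits (2.16%). In the opposite direction, 43 unnamed genes (0.678%) reached a log2 ratio of 1 or more. With the ratios centred on the median of all genes, the split was 218 lower and 26 higher at DD20, and with the columns rescaled without the 10 most abundant genes it was 231 and 22. As the same contrast chose the genes, these shares describe the table and test nothing. The median log2 ratio of the 147 genes was -1.31, against 0.14 over all unnamed genes and 0.15 over all genes at that level.

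**Figure D1:**
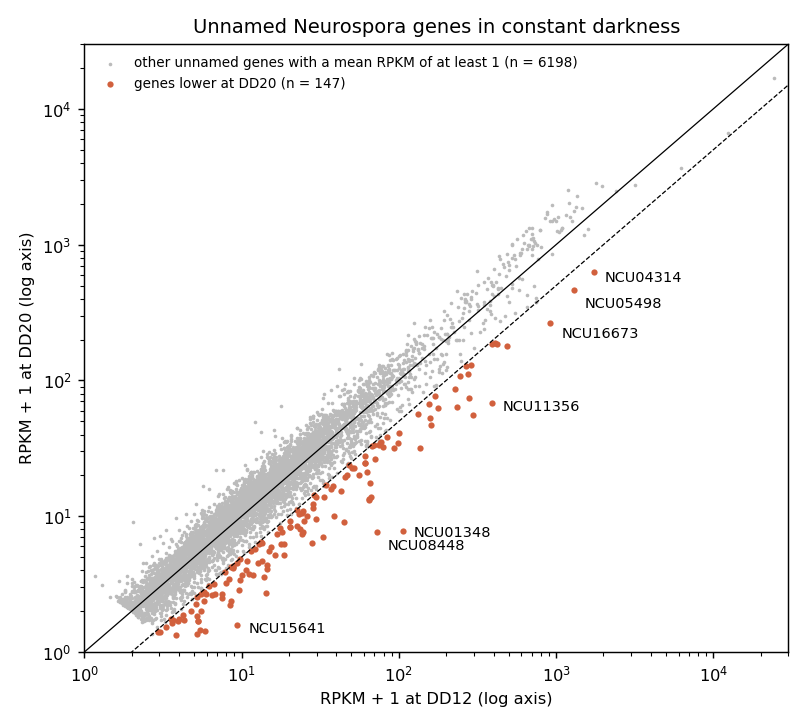
Each point is 1 unnamed gene with a mean of at least 1 RPKM, with RPKM + 1 at DD12 on the horizontal log axis and RPKM + 1 at DD20 on the vertical log axis. The solid line marks equal values and the dashed line the 2-fold limit. The 147 genes below the dashed line run from NCU14070 at 0.326 RPKM to NCU04314 at 633 RPKM, both at DD20, and some other unnamed genes lie higher.

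Whole reads were recovered from the steps between RPKM values, for 8680 of 8726 genes with a RefSeq entry and a value above 0 in both columns. The library totals inferred from the same steps were 29960356 reads at DD20 and 30712952 at DD12. Reads could be assigned to 146 of the 147 genes, with a median of 294.5 per gene at DD20 (2 to 27471) and 824.5 at DD12 (21 to 77437). For 32 of them more than 1 gene length fitted, and the RefSeq span, or otherwise the length with the fewest reads, was used. Among genes with 1 to 10 reads the number was even in 60.4% at DD20 and 65.4% at DD12, so the mates of a pair were taken as counted separately. Each 95% interval (Clopper-Pearson, exact) therefore rests on the reads divided by 2, leaves out the added 1 and covers counting error only. For 145 of the 146 genes the interval of the log2 ratio lay below 0, and for 106 of them it lay below -1. The rule had already set the ratios from the same values at -1 or less. These counts therefore describe read depth and test nothing. The exception at 0 was NCU16688, with 16 reads at DD20 and 39 at DD12 at the shortest length that fitted.

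The culture markers bear on all results below. Conidial and conidiation genes (con-6, con-8, con-10, con-13, eas, fl and acon-3) summed to 7695 RPKM at DD20 and 9218 RPKM at DD12, nearly all from eas, the hydrophobin of the conidial coat, and 6 of the 7 had a log2 ratio below 0. Light-induced genes (vvd, al-1, al-2, al-3, cry and phr) summed to 49.3 RPKM at DD20 and 100.1 RPKM at DD12, with 5 of 6 below 0. Of 5 genes of sexual tissue 4 were found (poi-2, asd-1, asd-3 and app), and all 4 were below 0, with sums of 48.5 RPKM at DD20 and 147.8 RPKM at DD12. Most of both sums came from app, with 32.0 RPKM at DD20 and 124.0 RPKM at DD12. Genes of growing hyphae (gpd-1, tef-1, act and pma-1) summed to 16062 RPKM at DD20 and 19841 RPKM at DD12. Only gpd-1 was below 0, with 9120 RPKM at DD20 and 14155 RPKM at DD12. The lower sum came from gpd-1 alone, as tef-1, act and pma-1 were each higher at DD20. Of the unnamed protein-coding genes with a mean of at least 1 RPKM, 34.3% were below 0. With the ratios centred on the median of all genes, fl, phr and act were also below 0. No gene of these lists was at 0 at either time point, but con-8, con-13, cry and asd-3 were under 1 RPKM at both. In bulk RNA, fewer cells of a type and less RNA per cell cannot be told apart. Most of the first and last sums came from eas and gpd-1. A marker that itself follows time in darkness would shift its sum without any change in the cells, and this was not tested. The part of the markers in the results below was not tested.

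The lowest ratio belonged to NCU01348, a protein-coding gene with 6.75 RPKM at DD20 (415 reads) and 105 RPKM at DD12 (6633 reads). Its log2 ratio was -3.78, and its counting interval ran from -4.17 to -3.76. NCU08448, also protein-coding, followed with 6.61 RPKM at DD20 (399 reads) and 72.0 RPKM at DD12 (4453 reads), a log2 ratio of -3.26 with a counting interval of -3.66 to -3.23. These were the only 2 of the 147 genes at a log2 ratio of -3 or less. Without the added 1, they were 15.6-fold and 10.9-fold lower at DD20.

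The third, NCU15641, is an entry that RefSeq lists as rRNA. It had 0.575 RPKM at DD20 and 8.42 RPKM at DD12, from 2 reads and 30 reads at a length of 116 nt. The counting interval of its log2 ratio was -9.27 to -1.17, so its place in the order is not settled. rRNA genes occur in similar copies, and how the authors placed reads among copies is not given in the sources used here.

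The next 2 were abundant protein-coding genes. NCU11356 had 66.7 RPKM at DD20 and 389.7 RPKM at DD12, from 2751 and 16483 reads, and NCU04583 had 54.5 RPKM at DD20 and 294 RPKM at DD12, from 2574 and 14228 reads. Their log2 ratios were -2.53 and -2.41. Both counting intervals were narrow, -2.63 to -2.46 and -2.52 to -2.34. The RefSeq span of NCU04583 overlaps that of NCU04584, which had 14.1 RPKM at DD20 and 13.7 RPKM at DD12 and so did not share the difference.

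The others of the 10 lowest ratios lay close together, between -2.40 and -2.26. NCU08425 had 1.71 RPKM at DD20 and 13.3 RPKM at DD12, the lowest levels of the 5. NCU08156 had 8.05 RPKM at DD20 and 43.6 RPKM at DD12. NCU00878 had 12.3 RPKM at DD20 and 64.0 RPKM at DD12. NCU14131, which RefSeq lists as ncRNA, had nearly the same values as NCU00878, 12.2 RPKM at DD20 and 63.3 RPKM at DD12. NCU06401 had 12.8 RPKM at DD20 and 65.1 RPKM at DD12, and its span overlaps that of NCU06402, which had 298 RPKM at DD20 and 474 RPKM at DD12. The counting intervals of NCU08156, NCU00878, NCU14131 and NCU06401 overlap one another. That of NCU08425, without the added 1, was -3.42 to -2.53 and overlaps each of these 4. Read counting therefore does not order the 5 genes.

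Most of the 147 genes lay near the limit. A log2 ratio of -2 or less was reached by 14 genes and -1.5 or less by 49, which leaves 98 between -1.5 and -1. The 3 genes just inside the limit were NCU14147, with 3.82 RPKM at DD20 and 8.71 RPKM at DD12, NCU11292, with 13.4 RPKM at DD20 and 27.7 RPKM at DD12, and NCU09714, with 2.09 RPKM at DD20 and 5.19 RPKM at DD12. Just outside lay NCU09513, with 36.1 RPKM at DD20 and 73.2 RPKM at DD12, NCU06121, with 1.44 RPKM at DD20 and 3.87 RPKM at DD12, and NCU03208, with 15.8 RPKM at DD20 and 32.6 RPKM at DD12. The limit therefore divides genes with nearly equal ratios.

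**Figure D2:**
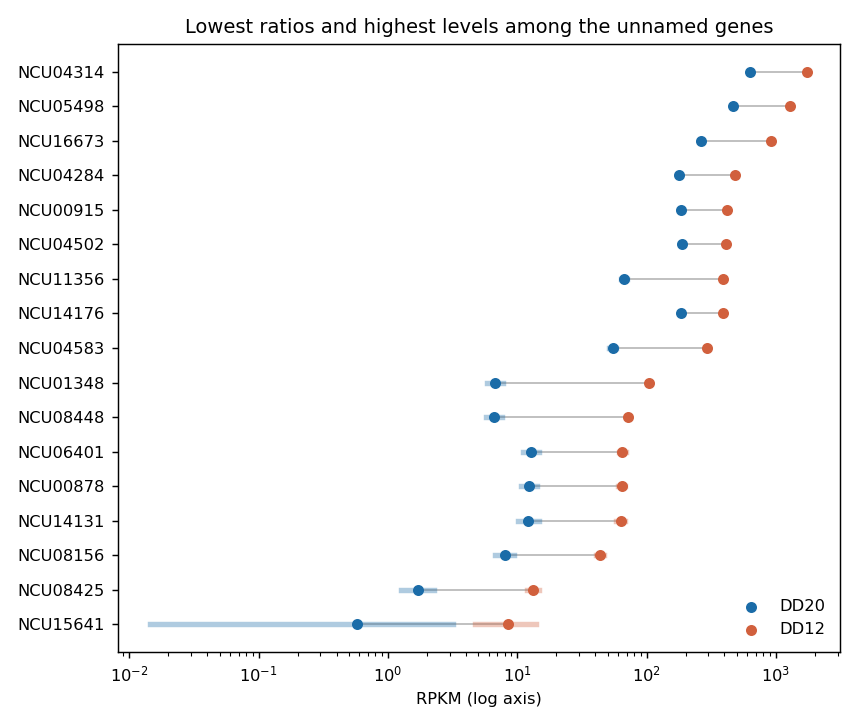
RPKM on a log axis at DD20 (blue) and DD12 (orange) for the 10 genes with the lowest log2 ratio and the 8 with the highest RPKM at DD12, 17 genes in all because NCU11356 is in both sets. Shaded bars are exact 95% Poisson intervals of the counts, which cover counting error only and are narrower than the points for the abundant genes. The bars of NCU15641 are by far the widest, and NCU05498 has none because its reads could not be recovered.

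The gene with the highest level was NCU04314, with 633 RPKM at DD20 and 1740 RPKM at DD12, from 27471 and 77437 reads. Its log2 ratio was -1.46 (counting interval -1.49 to -1.43). NCU05498 had 464 RPKM at DD20 and 1295 RPKM at DD12, a log2 ratio of -1.48, and was the gene without recovered reads. NCU16673 had 263 RPKM at DD20 and 917 RPKM at DD12, with the lowest log2 ratio of the 3 most abundant genes, -1.80.

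A lower group of abundant genes was closer to the limit. NCU04284 had 179 RPKM at DD20 and 484 RPKM at DD12, a log2 ratio of -1.43. NCU00915 had 183 RPKM at DD20 and 421 RPKM at DD12, and NCU04502 had 188 RPKM at DD20 and 410.1 RPKM at DD12. NCU14176, an ncRNA entry, had 185 RPKM at DD20 and 389.5 RPKM at DD12. The log2 ratios of these last 3 were -1.20, -1.12 and -1.07. At DD12 NCU14176 and NCU11356 had almost the same level, whereas at DD20 NCU11356 was far below NCU14176, with 66.7 RPKM.

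At least 100 RPKM was reached by 11 of the 147 genes at DD20 and by 24 at DD12. At the other end, 18 genes were under 1 RPKM at DD20 and 0 at DD12, and 14 had fewer than 20 reads at DD20. None was listed at 0 at DD20. All 147 genes together took 1.0% of the summed RPKM at DD20 and 2.96% at DD12. The added 1 weighs most on the low genes. The 64 genes with a mean of 1 to 10 RPKM and the 62 with 10 to 100 RPKM had the same median log2 ratio, -1.29, but without the added 1 the median gene was 3.55-fold lower at DD20 in the first group and 2.55-fold lower in the second. In the 21 genes with a mean of 100 RPKM or more the median log2 ratio reached -1.43 (2.70-fold lower without the added 1).

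What the genes share beyond the rule was looked for in the annotation, again as a description without a test. RefSeq lists 135 of them as protein-coding, 11 as ncRNA and 1 as rRNA. Genes listed as ncRNA are transcribed without a known protein product. The 11 were 12.6% of the 87 unnamed ncRNA genes with a mean of at least 1 RPKM, whereas the 135 were 2.16% of 6250 unnamed protein-coding genes. Over the 87 ncRNA genes, the 11 included, the median log2 ratio was -0.26, with 55 below 0 (63.2%). Over the protein-coding genes, the 135 included, the median was 0.15, and 34.3% were below 0. Most of the 55 lay outside the 11. As the 11 were chosen for low ratios, they add to the ncRNA shift, and the ncRNA genes outside the 11 were not summarised alone.

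The ncRNA genes are all named, although only some fall under the rule for named genes. The others were chosen after their values were seen. NCU14131 and NCU14176 are given above. NCU14089 had 23.7 RPKM at DD20 and 60.3 RPKM at DD12, and NCU14008 had 6.69 RPKM at DD20 and 17.0 RPKM at DD12. NCU14086 had 1.39 RPKM at DD20 and 7.54 RPKM at DD12, a log2 ratio of -1.84. Of the ncRNA genes only NCU14131 had a lower log2 ratio, -2.28. Without the added 1, NCU14086 was 5.43-fold lower at DD20, and NCU14070 8.62-fold.

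The remaining ncRNA genes had low levels. NCU14002 had 2.69 RPKM at DD20 and 9.11 RPKM at DD12, NCU14082 had 2.43 RPKM at DD20 and 7.34 RPKM at DD12, and NCU14097 had 3.23 RPKM at DD20 and 7.78 RPKM at DD12. NCU14147 is the gene just inside the limit. The lowest were NCU14021, with 0.651 RPKM at DD20 and 2.60 RPKM at DD12, and NCU14070, with 0.326 RPKM at DD20 and 2.81 RPKM at DD12, from only 6 and 53 reads. Of the 11 ncRNA genes, 5 had a counting interval below -1 and 6 had one that reached -1. NCU14008 and NCU14147 overlap a protein-coding entry in RefSeq. Strand handling is not given in the sources used here, so the reads of a gene and of one overlapping it cannot be told apart.

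Gene models in the group were shorter than those of the unnamed genes as a whole, which include the group. Over the 114 with a single recovered length the median was 1532 nt, with quartiles of 1129 and 2067 nt. Over the 5045 unnamed genes at that level with a single length it was 2107 nt, with quartiles of 1495 and 2923 nt. Protein-coding genes alone also differed, with medians of 1551 nt in the group and 2126 nt over unnamed genes. By length class, the share of unnamed genes in the group was 4.85% from 500 to 1000 nt (18 of 371), 3.21% from 1000 to 2000 nt (62 of 1933), 1.52% from 2000 to 3000 nt (23 of 1510) and 0.800% from 3000 to 5000 nt (8 of 1000). At 5000 nt or more it was 1 of 193 genes, and under 500 nt it was 2 of 38 (5.26%). The median log2 ratio of all unnamed genes also moved with length, by class. It was -0.22 under 500 nt, 0.056 at 500 to 1000 nt and up to 0.29 at 5000 nt or more. The part of that trend in the group was not tested.

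**Figure D3:**
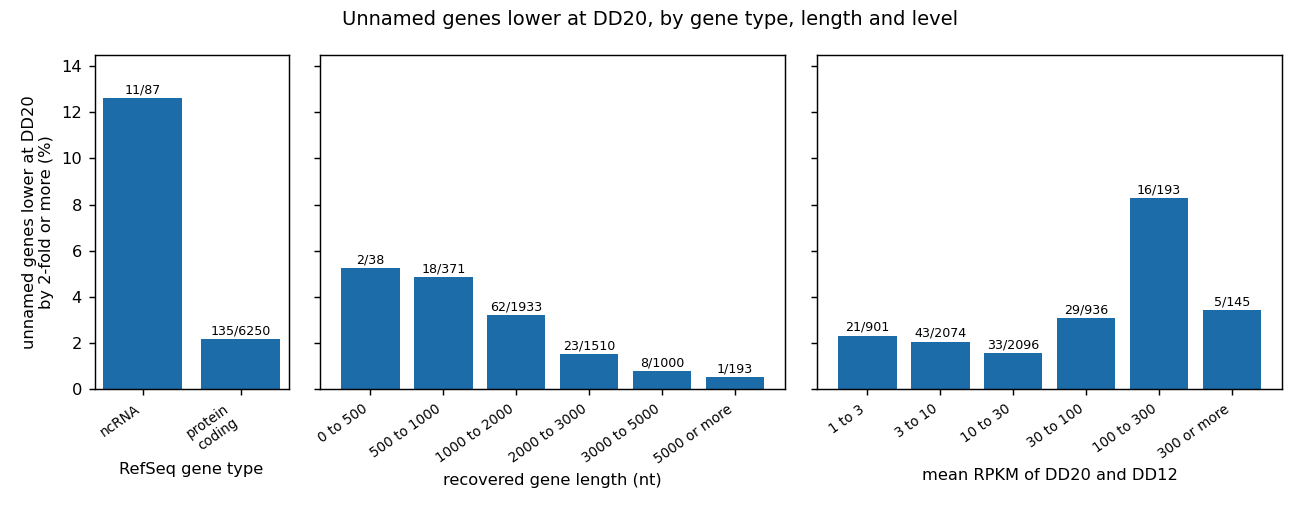
Bars give the percent of unnamed genes with a mean of at least 1 RPKM that were lower at DD20 by 2-fold or more, by RefSeq gene type, by recovered gene length in nt and by mean RPKM. The numbers above the bars are genes in the group over genes in the class. The share is 12.6% in ncRNA genes and declines from one length class to the next. By level it is highest at a mean of 100 to 300 RPKM, where it is 8.29%. The shares by mean RPKM depend in part on the rule, as the added 1 holds back the ratios of low genes.

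By level, the share was between 1.57% and 3.10% in the classes from 1 to 100 RPKM, 8.29% from 100 to 300 RPKM (16 of 193) and 3.45% at 300 RPKM or more (5 of 145). Mean RPKM is part of the rule, and the added 1 holds back the ratios of low genes. A pseudocount of 0.1 gave 210 genes in place of 147, and a pseudocount of 5 gave 73. Shares by level therefore depend in part on the rule. In 30.2% of the 106 protein-coding genes of the group with a single length, the recovered length equalled the whole RefSeq span. The share was 18.1% of 4967 unnamed protein-coding genes. NCU numbers of 14000 or above belonged to 17 of the 135 protein-coding genes (12.6%), against 3.97% of the 6250. RefSeq gave 2 or more transcripts to 9.63% of the 135 and to 11.3% of the 6250. The RefSeq span overlapped another entry in 35 of the 147 genes (23.8%), against 29.5% of the 6345.

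Gene order was compared next. Along the RefSeq assembly, with the genes of the table taken in order, 33 of the 147 genes lay next to another of the 147, in 17 pairs. Counting each neighbour once, 207 next genes had a mean of at least 1 RPKM, and 37 of these (17.9%) were at a log2 ratio of -1 or less. Of the 37, 33 were themselves among the 147 and 4 had a symbol. Both genes of each of the 17 pairs therefore count as neighbours. Among the neighbours of genes above -1 the share was 146 of 6898 (2.12%). Spans overlapped in 5 of the 17 pairs. With overlapping neighbours left out, 27 of 178 neighbours (15.2%) were at -1 or less, 24 of them among the 147. A share without overlap is not given for the neighbours of genes above -1, so the 15.2% has no matched comparison.

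The neighbours that did not reach -1 were also shifted. Their median log2 ratio was 0.026 over 170 genes, and 47.6% were below 0. Over all 7203 placed genes that did not reach -1 the median was 0.16, and 32.2% were below 0. Across all 4842 pairs of next genes without overlap at a mean of at least 1 RPKM, Spearman's rho between the log2 ratios was 0.14, a description over genes of the same 2 columns.

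One run held 3 genes. NCU11365 had 8.98 RPKM at DD20 and 37.8 RPKM at DD12, the next gene NCU11364 had 1.21 RPKM at DD20 and 7.39 RPKM at DD12, and NCU11363 after it had 0.461 RPKM at DD20 and 4.41 RPKM at DD12. Their log2 ratios were -1.96, -1.92 and -1.89, a likeness that depends on the added 1. Without it, NCU11365 was 4.20-fold, NCU11364 6.09-fold and NCU11363 9.57-fold lower at DD20. NCU11365 and NCU11364 overlap in RefSeq, whereas NCU11364 and NCU11363 do not. The run ended at genes under a mean of 1 RPKM, NCU07597 beside NCU11365 and NCU07599 beside NCU11363, and NCU07599 was listed at 0 at both time points.

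In some of the pairs without overlap both level and ratio were alike. NCU04237 had 33.9 RPKM at DD20 and 98.3 RPKM at DD12, and its neighbour NCU04238 had 40.03 RPKM at DD20 and 98.5 RPKM at DD12, with log2 ratios of -1.51 and -1.28. NCU04879 had 2.56 RPKM at DD20 and 12.995 RPKM at DD12, and NCU16738 had 3.11 RPKM at DD20 and 13.6 RPKM at DD12, with log2 ratios of -1.98 and -1.83. NCU04928, a protein-coding gene with 15.6 RPKM at DD20 and 37.4 RPKM at DD12, had a ratio of -1.21, near the -1.31 of its ncRNA neighbour NCU14089.

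In others the levels were several-fold apart. NCU08155 had 73.7 RPKM at DD20 and 278 RPKM at DD12, against the much lower NCU08156 given above, with log2 ratios of -1.90 and -2.30. NCU16683 had 21.7 RPKM at DD20 and 49.4 RPKM at DD12, and NCU00397 had 107 RPKM at DD20 and 244 RPKM at DD12, with ratios of -1.15 and -1.18. NCU05498, the second most abundant gene, lay next to the ncRNA gene NCU14176, with ratios of -1.48 and -1.07.

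The pairs NCU03682 and NCU03684, NCU08167 and NCU08168, NCU11291 and NCU11292, and NCU09874 and NCU00995 differed by 0.44 to 0.58 in log2 ratio. NCU03684 had the lowest log2 ratio of these, -2.10, with 30.7 RPKM at DD20 and 135 RPKM at DD12, while NCU03682 had 2.38 RPKM at DD20 and 8.74 RPKM at DD12. NCU00995 had 62.1 RPKM at DD20 and 175 RPKM at DD12, and NCU09874 had 31.8 RPKM at DD20 and 66.5 RPKM at DD12. The widest gap was between NCU01348 and NCU16998, which had 1.28 RPKM at DD20 and 4.10 RPKM at DD12. Their log2 ratios differed by 2.61, and the neighbour on the other side of NCU01348, NCU01347, was at -0.26.

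The 5 overlapping pairs are given apart because they may share reads. They were NCU04313 with NCU04314, NCU16952 with NCU04639, NCU11365 with NCU11364, NCU01976 with NCU14008, and NCU03969 with NCU17113. NCU04313 had 46.0 RPKM at DD20 and 159 RPKM at DD12, a log2 ratio of -1.77 beside the -1.46 of the far more abundant NCU04314. NCU16952 had 55.2 RPKM at DD20 and 131 RPKM at DD12, and NCU04639 had 85.6 RPKM at DD20 and 228 RPKM at DD12.

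**Figure D4:**
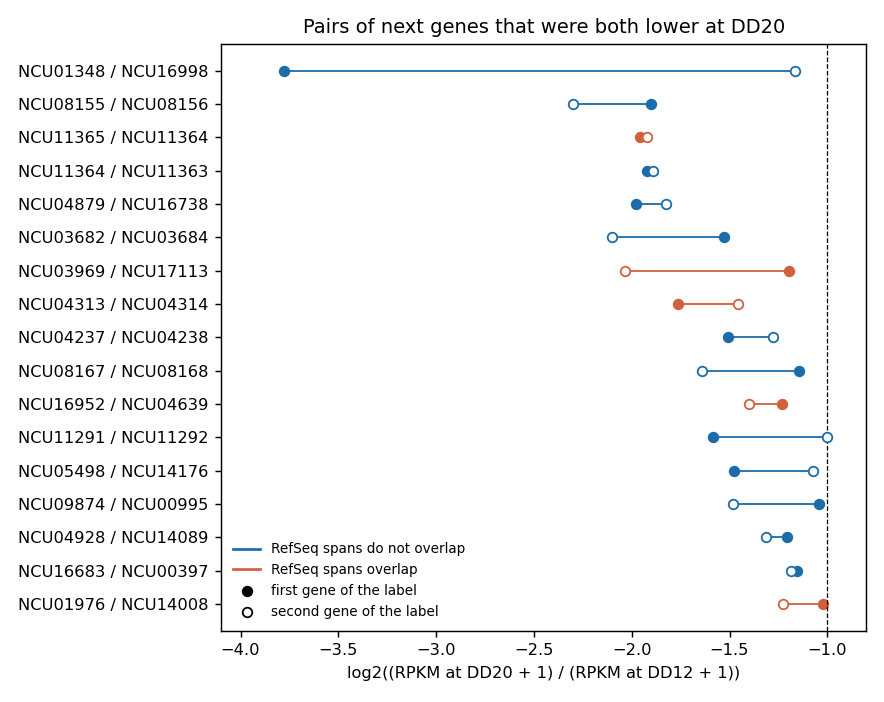
Each row is a pair of next genes that were both lower at DD20, and the horizontal axis is log2((RPKM at DD20 + 1)/(RPKM at DD12 + 1)) with the limit of -1 dashed. Filled and open points are the first and second gene of the label, blue for pairs without and orange for pairs with overlapping RefSeq spans. Over the 17 pairs the 2 log2 ratios differed by a median of 0.31, from 0.030 in NCU16683 and NCU00397 to 2.61 in NCU01348 and NCU16998.

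Neighbours with a symbol at a log2 ratio of -1 or less lay beside 4 of the 147 genes. NCU00829 lay next to tcu-1, NCU04342 next to egt-1, NCU07222 next to hcp-1, and NCU06301 next to ecd-1, whose span it overlaps. tcu-1 had 8.27 RPKM at DD20 and 24.4 RPKM at DD12, and hcp-1 had 14.8 RPKM at DD20 and 42.3 RPKM at DD12. The pair NCU03969 and NCU17113, with 0.742 and 0.441 RPKM at DD20 and 2.98 and 4.89 RPKM at DD12, lay close to vvd, which encodes the photoreceptor that damps light responses. vvd itself had 0.923 RPKM at DD20 and 15.2 RPKM at DD12. The gene between vvd and NCU03969, NCU03968, had 9.40 RPKM at DD20 and 8.75 RPKM at DD12, a log2 ratio of 0.093. NCU03969 rested on 8 reads at DD20 and 33 at DD12, with a counting interval of -4.04 to -0.38. NCU17113 had 19 reads at DD20 and 216 at DD12, with a counting interval of -4.60 to -2.52. The spans of NCU03969 and NCU17113 overlap, so their values may rest on shared reads.

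Closeness to a gene of the group did not always go with a lower value. NCU08448, second in ratio, lay next to NCU08449, which had 37.8 RPKM at DD20 and 15.3 RPKM at DD12, a log2 ratio of 1.25 in the opposite direction. NCU11356 lay between NCU11357 and NCU16616, at log2 ratios of 0.17 and -0.20. A further 2 pairs of the 147 genes had 1 gene between them. These were NCU11365 and NCU11363 of the run above, and NCU09775 and NCU09773, with 0.357 and 0.699 RPKM at DD20 and 4.24 and 4.32 RPKM at DD12. NCU09774 between the last 2 stayed under a mean of 1 RPKM, with 0.110 RPKM at DD20 and 0.573 RPKM at DD12.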

How the data were processed

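The authors deposited RPKM values, 1 per gene and time point, made from reads on gene models divided by gene length and library total. The submitters' processing notes name CASAVA 1.8 and HISAT. The counter, strand handling and genome build are not given in the sources used here. All columns of the table were used.

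Values were computed with scipy 1.17.1, numpy 2.4.6 and pandas 2.3.3 and drawn with matplotlib 3.10.9 under Python 3.11.15. Symbols and NCU numbers were those the authors deposited. Gene types, gene order and overlaps came from RefSeq assembly NC12, which had entries for 10526 genes. Its coordinates are not printed, and no sequence is shown. A library total was the value that gave whole reads at the RefSeq span for the largest number of genes. These were 847 genes at DD20 and 718 at DD12, against 365 and 283 for the next candidate value. A gene length was every whole number from 30 nt to that span that gave whole reads, within 0.003 reads, in both columns. These steps were tested on simulated data.

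The genes and lists were chosen with earlier results of these data known. Named genes were the 10 lowest ratios, the 8 highest RPKM at DD12, the 3 genes on each side of the limit and genes next to each other in order. Planned comparisons of protein and promoter sequence were not run. Other pseudocounts, filters and scalings were tried. The removal of genes with overlapping spans was added after the data were examined.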

Additional observations from a re-analysis of the deposited data

How the results depend on the processing

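No paired analysis was possible because DD20 and DD12 have 1 column each, and leaving out a replicate was likewise impossible.
Against 147 unnamed genes lower at DD20, a pseudocount of 5 left 73, and there were 83 at a mean of at least 10 RPKM (3370 genes tested in place of 6345) and 231 with the columns rescaled without the 10 most abundant genes. The first 2 lie wholly within the 147, and the third holds all of them and 84 more. The median log2 ratio of the 147 genes moved beyond the median counting error of 0.28 only with a pseudocount of 5 (-0.998), by construction of the larger added value. The share of 2-fold calls among unnamed genes that were lower at DD20 was 77.4%, against 89.3% with ratios centred on the median and 91.3% without the 10 most abundant genes. The median of all genes was -0.028 without the 10 most abundant genes, against 0.15. The cause was not tested. No filter gave 149 genes, rescaling over all genes 168, a pseudocount of 0.1 gave 210, centring 218 and removal of overlapping genes 112. Of 315 log2 ratios recomputed for 47 named genes, 63 shifted by at least the counting error, taken as the interval width divided by 2. Such a shift need not leave the interval, which has no added 1. With a pseudocount of 0.1, NCU17113 moved from -2.03 to -3.21, inside its interval of -4.60 to -2.52. The ratios of NCU11365, NCU11364 and NCU11363 were -2.06, -2.51 and -3.01 with a pseudocount of 0.1. Depth limits the genes under 20 reads at DD20.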
